A study of Mus musculus with 11 samples.

Results

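The smooth muscle contractile genes described here are 10 listed genes, of 19938 genes measured: the actins Acta2 and Acta1, the tropomyosins Tpm1 and Tpm2, the calponin Cnn1, the calponin relative Tagln, the myosin light chain Myl9, the intermediate filament protein Des, the potassium channel subunit Kcnmb1 and the ankyrin-repeat protein Ankrd1. The members were chosen by their role, with results of these same arrays known, Kcnmb1 and Ankrd1 having already ranked among the largest decreases against lacZ. Each of the 10 had 1 probe set of its own, so the rule of keeping a gene's brightest probe set left no choice to make. Their signals on all 11 arrays are therefore given first as a description. In the mouse genome (GRCm38.p6, RefSeq) Des lies at chr1:75360292-75368579, Myl9 at chr2:156775408-156781657, Tpm2 at chr4:43513726-43523583, Acta1 at chr8:123891758-123894775 and Kcnmb1 at chr11:33962955-33973641. On chromosome 9 lie Cnn1 (chr9:22099221-22109221), Tagln (chr9:45929628-45936058) and Tpm1 (chr9:67022590-67049672), and on chromosome 19 Acta2 (chr19:34240336-34255585) and Ankrd1 (chr19:36111965-36119844).

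The cells were mouse embryonic fibroblasts (MEFs) of male embryos at 13.5 days of gestation, from a cross of ROSA-rtTA and Nanog-GFP parents, and every group carried both alleles. A piggyBac transposon (PB-TAC) expressed a transgene together with mCherry under doxycycline at 1 ug/mL. In the cassette group, 8 transposons carried a polycistronic reprogramming vector (OKMS, OK+9MS, OKN-HAMS, OSKM, MKOS, STEMCCA, WTSI and EB-C5), and in the Klf4 group 2 transposons carried Klf4 alone (Klf4S and Klf4L). Both groups received doxycycline for 6 days and were sorted for mCherry, whereas the single control population carried lacZ, was harvested on day 2 and was not sorted. Each construct was measured on 1 array, so the spread within a group is the spread between constructs and not between repeated cultures, and day, sort and transgene cannot be told apart in any comparison with lacZ.

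Contractile genes encode the actin filaments, the myosin and the regulators with which smooth muscle generates tension. Fibroblasts in culture express part of the same set when they become contractile myofibroblasts, with Acta2 as the usual marker. Many of these genes are driven by serum response factor (SRF), which binds CArG boxes in their promoters together with the coactivators myocardin or the MRTF proteins, and Klf4, one of the transgenes here, is known in smooth muscle cells as a repressor of the contractile genes. Ankrd1 is a well known target of the transcription factors YAP and TEAD, which also respond to tension.

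The promoters of 4 members are shown because they hold the boxes that these factors are known to bind. RefSeq promoter windows (GRCm38.p6), from 250 bases before to 50 bases after the annotated start, were at hand for 9 of the 10 members, all but Tagln. They were searched on both strands for CArG boxes, which are CC and GG around 6 bases, here with at most 1 C or G among the 6. Acta2 and Myl9 each held 2 such boxes and Acta1 held 3, against 9.98% of 32851 promoters with at least 1. The windows of the remaining members searched held none. Boxes with only A or T among the 6 bases stood in Acta1 and Myl9 alone, against 1.63% of all promoters. The TEAD core CATTCC stood in the windows of Ankrd1, Acta2, Acta1 and Tpm1, against 14.7% of all promoters, and the CACCC core of the Klf family in those of 8 members, against 57.5%. The boxes start 84 and 34 bases before the start of Acta2, 205, 154 and 73 before that of Acta1, and 161 and 99 before that of Myl9. In Acta1, 1 CACCC core overlaps the CArG box nearest the start. Below, capitals mark CArG boxes in Acta2, Acta1 and Myl9 and the 2 TEAD cores, read on the other strand, in Ankrd1. Each sequence runs 5′ to 3′ along its gene.
Acta2, chr19:34255324-34255623, minus strand: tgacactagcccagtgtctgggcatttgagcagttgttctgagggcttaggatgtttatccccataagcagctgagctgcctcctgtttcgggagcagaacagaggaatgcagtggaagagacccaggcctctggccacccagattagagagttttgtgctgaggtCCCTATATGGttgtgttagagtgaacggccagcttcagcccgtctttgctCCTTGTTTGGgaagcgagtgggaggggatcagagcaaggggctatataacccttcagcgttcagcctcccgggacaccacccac
Acta1, chr8:123894726-123895025, minus strand: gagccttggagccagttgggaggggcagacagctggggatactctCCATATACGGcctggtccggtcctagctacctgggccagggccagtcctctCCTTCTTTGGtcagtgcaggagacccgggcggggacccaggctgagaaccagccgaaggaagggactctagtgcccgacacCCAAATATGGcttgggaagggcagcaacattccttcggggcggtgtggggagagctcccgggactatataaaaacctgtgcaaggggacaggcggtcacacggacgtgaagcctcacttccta
Myl9, chr2:156775214-156775513, plus strand: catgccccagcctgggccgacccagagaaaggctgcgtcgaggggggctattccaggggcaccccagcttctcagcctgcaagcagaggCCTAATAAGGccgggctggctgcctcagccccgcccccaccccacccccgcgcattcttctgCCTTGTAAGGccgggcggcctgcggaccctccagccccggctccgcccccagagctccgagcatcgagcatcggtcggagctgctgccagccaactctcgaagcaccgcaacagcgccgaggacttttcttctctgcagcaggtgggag
Ankrd1, chr19:36119795-36120094, minus strand: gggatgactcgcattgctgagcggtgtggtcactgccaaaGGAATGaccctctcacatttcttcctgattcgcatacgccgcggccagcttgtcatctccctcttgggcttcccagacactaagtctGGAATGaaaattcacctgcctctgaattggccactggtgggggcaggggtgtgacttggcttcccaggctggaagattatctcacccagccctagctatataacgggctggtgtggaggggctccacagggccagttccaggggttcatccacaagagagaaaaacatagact
A match of letters describes these windows and does not show binding in the cells.

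The label of the cells was checked first. Of 13 measured fibroblast markers, 12 lay above the array median on all 11 arrays, the median being that over the 19938 genes, from 7.54 to 7.67 on the log2 scale of the deposited values. In lacZ, where it was 7.58, 1 of 8 macrophage and 0 of 8 endothelial markers lay above the median, as did 2 of 18 skeletal and 0 of 9 cardiac muscle markers. Of 22 further contractile genes of smooth muscle, 16 lay above the median in lacZ and 10 did so on all 11 arrays. Among these 22 is the heavy chain Myh11 of mature smooth muscle, named here for its role and outside the naming rule. Myh11 read from 6.91 to 7.64 in the cassettes, 7.90 with Klf4S, 7.49 with Klf4L and 7.87 with lacZ. Unlike most of its list in lacZ, it was not far above the array medians in any group.

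All 10 members read highest in lacZ, and in all 10 both Klf4 constructs lay below lacZ and all 8 cassettes lay below lacZ. Over all genes, lacZ was the highest of the 11 arrays for 14.5%, both Klf4 constructs lay below lacZ for 40.6% and all 8 cassettes did for 20.8%. In 7 members (Acta2, Acta1, Tpm1, Tpm2, Tagln, Myl9 and Des) the cassettes also lay below both Klf4 constructs without overlap, as for 17.8% of all genes. Kcnmb1 and Ankrd1 were chosen on their decrease against lacZ, so nothing is read from their part in the counts against lacZ. The complete order of cassettes below Klf4 alone below lacZ held for the same 7 members and for 3.84% of all genes. In bulk RNA, fewer contractile cells and less RNA per cell cannot be told apart.

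**Figure D1:**
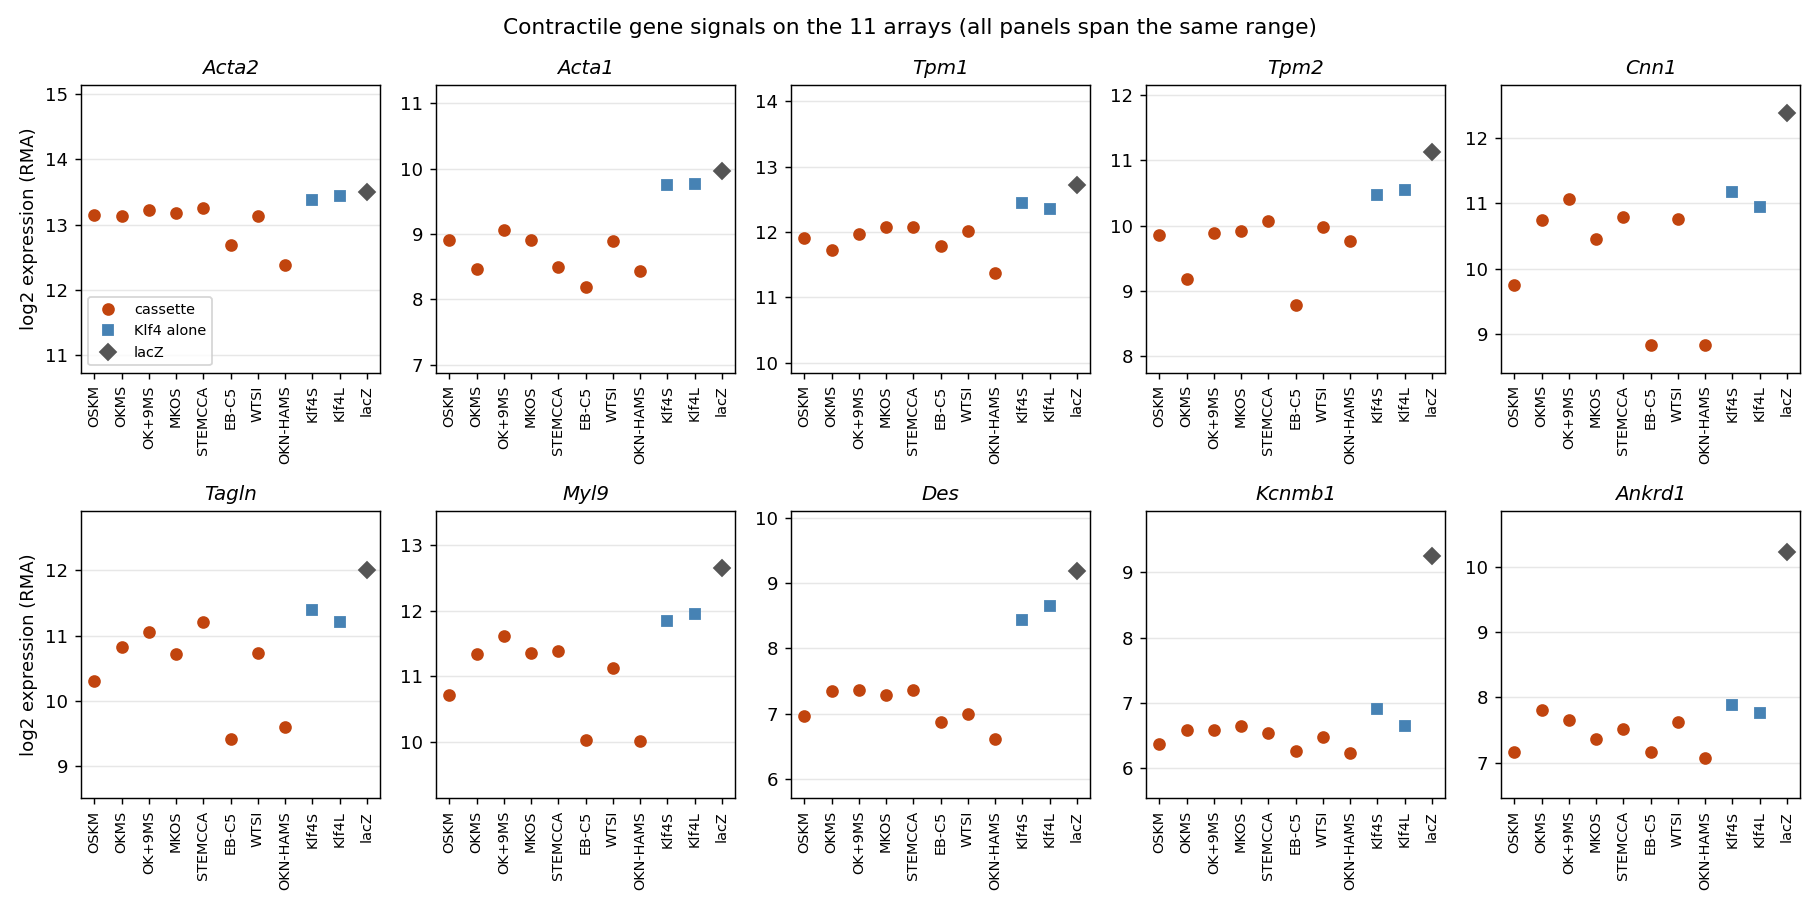
Log2 expression of each contractile gene (vertical axes, all of the same span) on the 11 arrays, 1 point per construct: 8 cassettes as circles, 2 Klf4 constructs as squares and lacZ as a diamond. In every panel lacZ is the highest point, and the Klf4 constructs overlap the cassettes in Cnn1, Kcnmb1 and Ankrd1 only.

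Of the thin filament genes, Acta2, the smooth muscle actin, lay between 12.38 (OKN-HAMS) and 13.26 (STEMCCA) in the cassettes, with a median of 13.13, and read 13.38 with Klf4S, 13.44 with Klf4L and 13.49 with lacZ. The groups did not overlap, yet 6 of the 8 cassettes differed from lacZ by only -0.36 to -0.23, and EB-C5 (12.69) and OKN-HAMS stood lowest. Acta1, the actin of skeletal muscle, which is also an SRF target, spanned 8.19 (EB-C5) to 9.06 (OK+9MS) among cassettes, with a median of 8.70, against 9.75 with Klf4S, 9.77 with Klf4L and 9.97 with lacZ. Here the Klf4 constructs lay close to lacZ and every cassette lay well below all 3.

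Tropomyosins lie along the actin filament and govern the access of myosin to it. Tpm1 read from 11.38 (OKN-HAMS) to 12.08 (MKOS) in the cassettes (median 11.94), 12.45 with Klf4S, 12.36 with Klf4L and 12.72 with lacZ. Tpm2 ranged from 8.78 (EB-C5) to 10.07 (STEMCCA) in the cassettes (median 9.87), with 10.47 with Klf4S, 10.55 with Klf4L and 11.12 with lacZ. The 2 tropomyosins differed in which cassettes stood lowest: OKN-HAMS and OKMS for Tpm1, EB-C5 and OKMS for Tpm2.

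Cnn1, Tagln and Myl9 showed the widest range among the cassettes. Cnn1, calponin, which binds actin and inhibits the myosin ATPase, lay between 8.84 (EB-C5 and OKN-HAMS alike) and 11.07 (OK+9MS), with a median of 10.60, against 11.17 with Klf4S, 10.94 with Klf4L and 12.38 with lacZ. Tagln, the actin cross-linker also called SM22, ranged from 9.42 (EB-C5) to 11.21 (STEMCCA) in the cassettes (median 10.73), and read 11.39 with Klf4S, 11.21 with Klf4L and 12.00 with lacZ. Myl9, the regulatory light chain whose phosphorylation starts contraction, lay between 10.01 (OKN-HAMS) and 11.62 (OK+9MS) in the cassettes (median 11.24), against 11.84 with Klf4S, 11.95 with Klf4L and 12.65 with lacZ. EB-C5 and OKN-HAMS stood apart at the bottom for all 3 genes, with OSKM next in each (9.75, 10.30 and 10.71 for Cnn1, Tagln and Myl9).

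Des, desmin, the intermediate filament protein of muscle, separated the groups, with less spread among the cassettes than Cnn1, Tagln and Myl9. It lay between 6.62 (OKN-HAMS) and 7.37 (STEMCCA) in the cassettes, with a median of 7.14, against 8.44 with Klf4S, 8.65 with Klf4L and 9.19 with lacZ. The cassette readings were below the array medians, so the difference may be understated.

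In Kcnmb1 and Ankrd1 both Klf4 constructs lay close to the cassettes. Both genes were chosen on their decrease against lacZ. Nothing is therefore read from their gap to lacZ or from how they differ from the other members. Kcnmb1, the beta subunit of the large-conductance calcium-activated potassium channel of smooth muscle, read from 6.23 (OKN-HAMS) to 6.65 (MKOS) in the cassettes (median 6.51), 6.90 with Klf4S, 6.64 with Klf4L and 9.25 with lacZ. Ankrd1, which acts in the nucleus and at the sarcomere, lay between 7.08 (OKN-HAMS) and 7.80 (OKMS) in the cassettes (median 7.44), and read 7.89 with Klf4S, 7.76 with Klf4L and 10.23 with lacZ. All 10 construct readings of Kcnmb1 lay below the array medians, so its fold against lacZ may be understated too. Its difference between cassettes and Klf4 alone may be understated for the same reason.

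The comparison of cassettes with Klf4 alone sets polycistronic vectors beside Klf4 constructs, both groups being harvested on day 6 and sorted. The groups differ in the further factors and in the insert of the shared transposon, polycistronic or Klf4 alone. The amount of Klf4 made was not measured, so these cannot be told apart. Of the 10 members, 2 were called lower (limma over all 19938 genes, Benjamini-Hochberg adjusted p under 0.05), where 8.12% of all genes were called lower. Des fell by 1.45 on the log2 scale (a fold of 2.73, SE 0.20, n = 8 against n = 2, limma adjusted p = 0.00382) and Acta1 fell by 1.09 (a fold of 2.13, SE 0.21, limma adjusted p = 0.01366). Both calls were lost when either Klf4 construct was left out, with differences of about the same size: Des then had -1.55 without Klf4S (limma adjusted p = 0.06062) and -1.34 without Klf4L (limma adjusted p = 0.08034), and Acta1 -1.10 (limma adjusted p = 0.1449) and -1.08 (limma adjusted p = 0.1336). The genes called over the whole table dropped too, to 104 without Klf4S and 92 without Klf4L, against 2885. With 1 Klf4 array left, the spread is estimated from the cassettes alone, as it mostly is in the main fit. The Klf4 mean then rests on that single array. Tpm1 missed the threshold narrowly, with a difference of -0.54 (SE 0.16, limma adjusted p = 0.05341). It was called when MKOS, STEMCCA or OKN-HAMS was left out, with each array centred on its median, with an intensity trend and among genes above the median level.

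The other 7 members had differences from -0.31 for Kcnmb1 to -0.95 for Myl9 and did not pass the test. Myl9 (SE 0.43, limma adjusted p = 0.1653), Cnn1 (-0.90, SE 0.61, limma adjusted p = 0.3719) and Tagln (-0.82, SE 0.45, limma adjusted p = 0.2572) had differences of the same order as Acta1 but 2 to 3 times its SE. The ranges of Tagln and Myl9 did not overlap between the groups, although STEMCCA and Klf4L both read 11.21 for Tagln after rounding, while Cnn1 in OK+9MS (11.07) exceeded Klf4L (10.94). The median over the 10 members was -0.82, against -0.02 over all genes. Fibroblast markers differed by as much in this comparison, with a median of -0.96 over 13 genes, all 13 lower in sign and 3 called lower, and their part in the contractile differences was not tested.

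Against lacZ, the cassettes had a median difference of -1.61 over the 10 members and of -0.01 over all genes. Kcnmb1 and Ankrd1 are in this median and were chosen on this comparison. The differences of the other 8 members ran from -0.47 (Acta2) to -2.22 (Cnn1). Of the 8 members tested here, Des passed: it fell by 2.09 (a fold of 4.25, SE 0.26, n = 8 against n = 1, limma adjusted p = 0.005706), where 1.59% of all genes were called lower. Acta1 (-1.30, SE 0.28, limma adjusted p = 0.05222) missed the threshold narrowly and was called with each array centred on its median, with an intensity trend, among genes above the median level, and without EB-C5. Leaving out EB-C5 also brought in Tpm2 (limma adjusted p = 0.04971), and leaving out OKN-HAMS brought in Tpm1 (limma adjusted p = 0.02964). Cnn1 had the largest of the differences not called, -2.22, but an SE of 0.82 (limma adjusted p = 0.229). Myl9 (-1.70), Tagln (-1.52), Tpm2 (-1.44), Tpm1 (-0.85) and Acta2 (-0.47) did not pass either, with limma adjusted p from 0.08799 for Tpm1 to 0.5003 for Acta2. Kcnmb1 at -2.79 (SE 0.16) and Ankrd1 at -2.81 (SE 0.25) had the largest differences, given without a p since this comparison put them on the list.

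For Klf4 alone against lacZ the median over the members was -0.67, and 0.00 over all genes. Kcnmb1 and Ankrd1, chosen on their decrease against lacZ, are in this median too. The other 8 members ran from -0.08 (Acta2) to -1.32 (Cnn1). By limma, 0 of the 8 members tested passed, at the adjusted threshold or at an unadjusted p under 0.05. Of all genes, 0.476% were called lower at the adjusted threshold, and 2289 of 19938 had an unadjusted p under 0.05 in either direction. Acta2 (-0.08, SE 0.33, limma adjusted p = 0.9903) and Acta1 (-0.22, SE 0.33, limma adjusted p = 0.9286) had the smallest differences, and Cnn1 had -1.32 (SE 0.94, limma adjusted p = 0.7121). The SEs are wide with 2 arrays against 1, so these values do not show that the members were alike in Klf4 alone and lacZ. Kcnmb1 had -2.49 (SE 0.19) here beside -2.79 in the cassettes, and Ankrd1 -2.41 (SE 0.29) beside -2.81, again without a p. Both comparisons share the lacZ array.

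**Figure D2:**
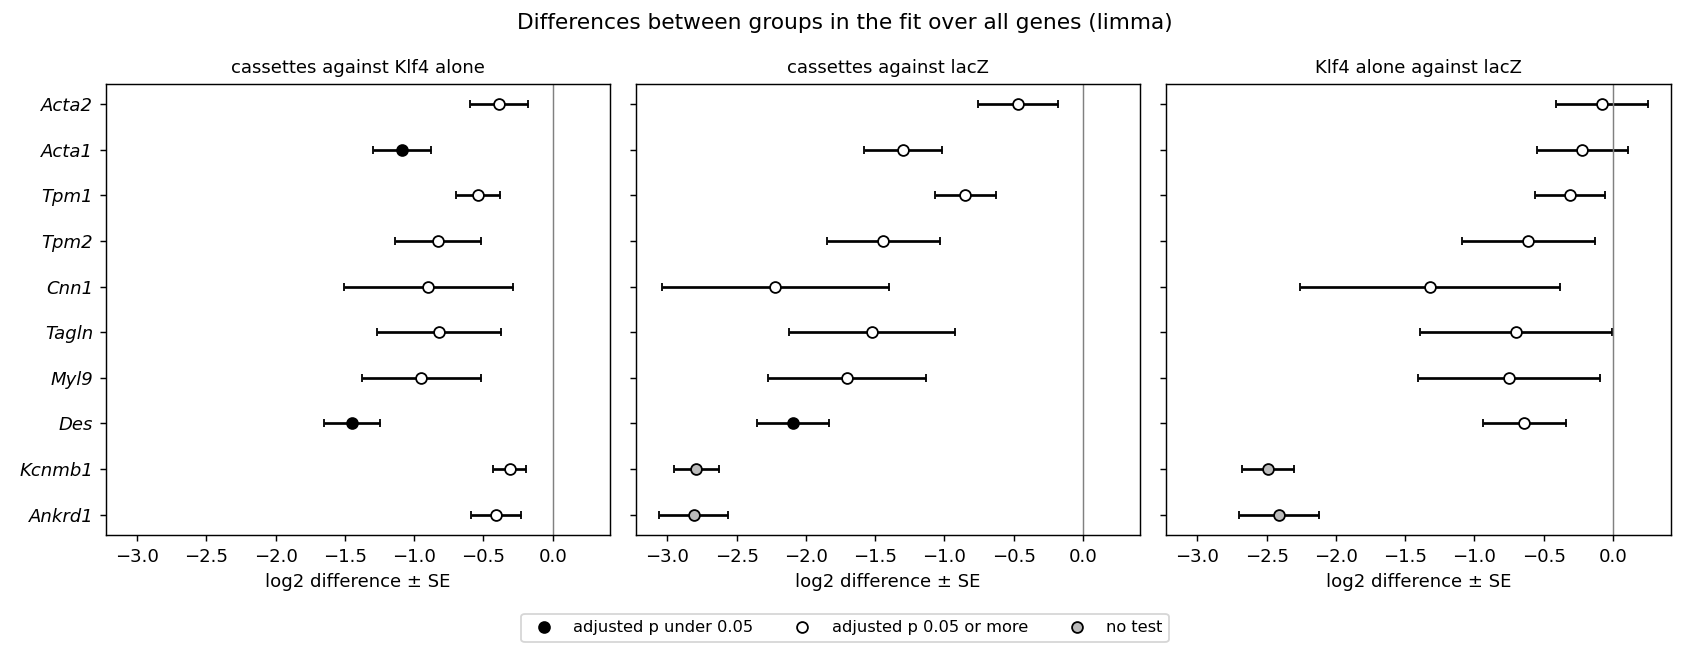
Log2 difference between groups with its SE for each contractile gene, from a limma fit over all 19938 genes; filled points passed an adjusted p under 0.05, open points did not and grey points were not tested. Des and Acta1 passed between the cassettes and Klf4 alone and Des between the cassettes and lacZ, and all differences shown lie below 0.

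Read construct by construct, the number of members at least 2-fold below lacZ was 10 in OKN-HAMS, 8 each in OSKM, OKMS, MKOS, EB-C5 and WTSI, 7 in STEMCCA and 6 in OK+9MS, against 3 each in Klf4S and Klf4L. Of all genes, 5.04% were at least 2-fold below lacZ in OKN-HAMS, 4.58% in EB-C5, 4.12% in OKMS, 3.22% in WTSI, 2.71% in OSKM, 2.33% in OK+9MS, 1.67% in MKOS and 1.27% in STEMCCA, against 2.01% in Klf4S and 1.98% in Klf4L. No member was 2-fold above lacZ in any construct. In all 8 cassettes, 6 members were at least 2-fold below lacZ (Tpm2, Cnn1, Myl9, Des, Kcnmb1 and Ankrd1), as were 0.512% of all genes. Kcnmb1 and Ankrd1 are in every one of these counts and were chosen on this comparison, and without them 4 of the other 8 members were 2-fold lower in all 8 cassettes. The 3 members 2-fold lower in both Klf4 constructs were Cnn1, Kcnmb1 and Ankrd1. With 1 array each, these counts have no replicate check.

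The cassettes were not alike. Averaged over the 10 members, the difference from lacZ was -2.27 in OKN-HAMS and -2.30 in EB-C5 on the log2 scale, -1.80 in OSKM and between -1.35 (OK+9MS) and -1.59 (OKMS) in the other 5. Kcnmb1 and Ankrd1, chosen on their decrease against lacZ, are in these averages. Only the order of the cassettes is read from the averages. EB-C5 and OKN-HAMS were the 2 lowest of the 8 cassettes for 7 members, as for 3.96% of all genes. OKN-HAMS was the lowest of all 11 arrays for 6 members and EB-C5 for 4. They parted in Tpm2, which read 9.76 in OKN-HAMS, close to the cassette median, and 8.78 in EB-C5.

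Epithelial markers did not follow the same order of constructs, and fibroblast markers followed it in part. The mean of 10 epithelial markers was 10.58 in OKN-HAMS and 7.31 in EB-C5, the cassettes lowest in contractile genes, against 7.07 in lacZ. It was also high in OSKM (10.43) and OK+9MS (10.61), and OK+9MS had the highest contractile mean of the cassettes. The mean of 13 fibroblast markers was 10.80 in OKN-HAMS and 10.93 in EB-C5, and it was as low in OKMS (10.74), in WTSI (10.90) and in lacZ (10.86), where the contractile genes were highest. Of the day 6 arrays, both Klf4 constructs read highest in fibroblast markers (11.98 each), as they did in the contractile mean. MKOS (11.65) and STEMCCA (11.57) came next in fibroblast markers. The relation between the lists was not tested. The 3 markers called lower in the cassettes when set against Klf4 alone were Col3a1 (-1.19), Col1a2 (-0.99) and Col6a1 (-0.58), collagens of the matrix, where 8.12% of all genes were called lower. Set against lacZ, 8 of the 13 fibroblast markers were higher in sign in the cassettes (median 0.18) and 12 of 13 in Klf4 alone (median 1.17). Limma called 0 of 13 at the adjusted threshold in either, where 0.456% and 0.271% of all genes were called higher. The epithelial markers had medians of 1.57 in the cassettes against Klf4 alone and 1.83 against lacZ.

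**Figure D3:**
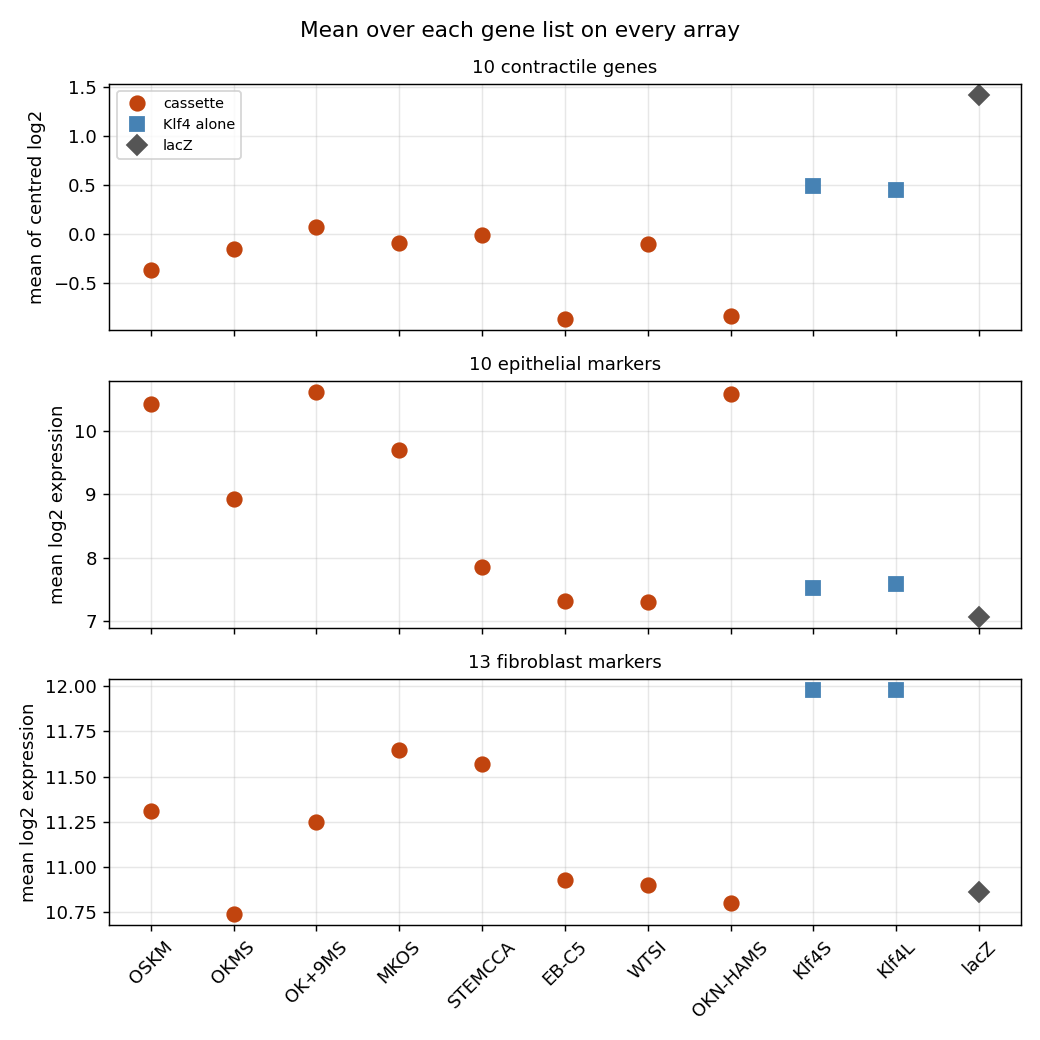
Mean over each gene list on the 11 arrays, 1 point per construct; the contractile genes are centred per gene on their mean over the arrays, and the marker lists are mean log2 expression. EB-C5 and OKN-HAMS share the lowest contractile means (-0.87 and -0.84) but have epithelial means of 7.31 and 10.58.

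The extension of Klf4 by 9 residues was read from the pairs whose labels name it. OK+9MS read above OKMS in 9 of 10 members, against 51.9% of all genes, with the largest differences in Tpm2 (0.70) and Acta1 (0.59) and -0.15 in Ankrd1. Klf4L read above Klf4S in 5 of 10 members, against 41.2% of all genes, and the differences ran from -0.26 (Kcnmb1) to 0.21 (Des). In neither pair was a member 2-fold apart, as 3.18% of all genes were between OK+9MS and OKMS and 0% between Klf4L and Klf4S. Each construct was measured once, so the pairs were not tested.

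Across the arrays the members moved together to different degrees. Pearson r over the 11 arrays had a median of 0.80 over the 45 pairs of members, from 0.53 to 0.98, and a median of 0.82 over the 10 arrays of day 6. Within the 8 cassettes alone the median was 0.71. There Cnn1, Tagln and Myl9 had r of 0.97 to 0.98 with each other, and Acta2 of 0.89 to 0.91 with these 3. Tpm2 and Acta1 had the lower values, with 0.11 for Tpm2 and Ankrd1, 0.29 for Acta1 and Ankrd1, and 0.70 between Tpm2 and Acta1. These correlations describe arrays that all members share and carry no test.

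**Figure D4:**
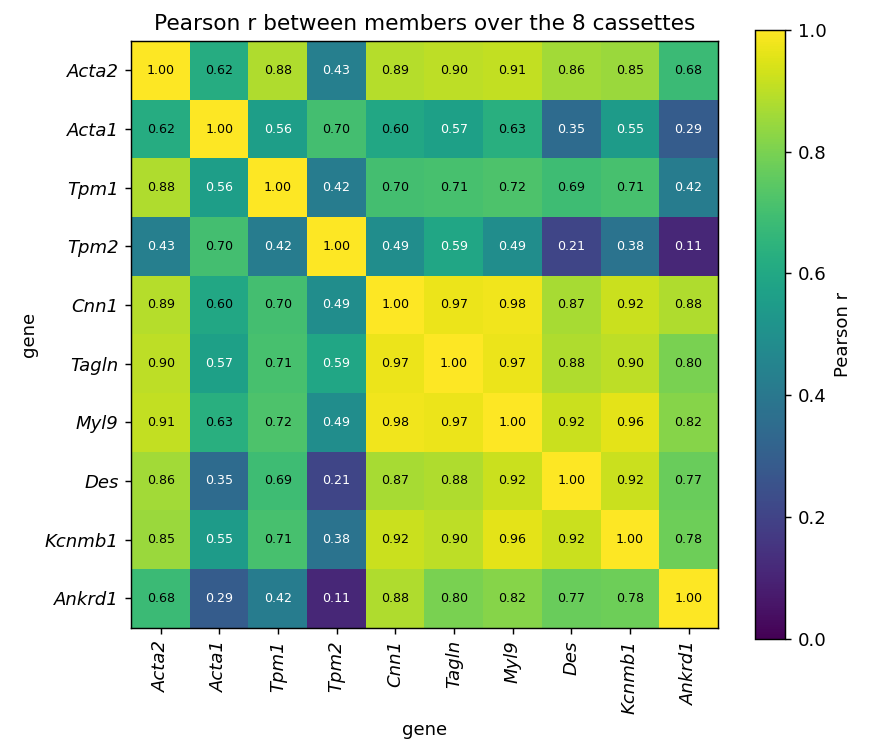
Pearson r between contractile genes over the 8 cassettes, both axes listing the genes. Cnn1, Tagln and Myl9 form a block at 0.97 to 0.98, and Tpm2 and Acta1 have lower values with most other members.

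Spread between constructs was large for part of the list. The SD over the 8 cassettes was 0.90 for Cnn1, 0.66 for Tagln and 0.63 for Myl9, against a median SD of 0.16 over all genes, which places them at the 98.6th, 97.0th and 96.5th percentiles. Des (0.28) and Acta1 (0.31), the members that passed a test, had smaller SDs, yet still at the 76.0th and 79.9th percentiles. Kcnmb1 (0.16) lay at the median of all genes.

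Outside the list, the genes whose signal was most like the mean of the members over the 11 arrays were Ahrr, a repressor of the aryl hydrocarbon receptor, Bambi, a pseudoreceptor that inhibits TGF-beta signalling, Nipal4 and the kinase Stk26 (Pearson r of 0.98 each). Glipr1, the small heat shock protein Hspb6, the adaptor Sh3kbp1 and the racemase Amacr followed (0.97 each). Hspb6 read from 10.11 to 11.18 in the cassettes, 11.38 with Klf4S, 11.55 with Klf4L and 12.29 with lacZ. Bambi read from 7.26 to 8.01 in the cassettes, 8.18 with Klf4S, 8.30 with Klf4L and 9.09 with lacZ. In all, 191 of 19928 other genes had an r above 0.9, with lacZ as the extreme array of the member mean.

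Further contractile genes of smooth muscle were read from a list of 22, all measured. In the cassettes against Klf4 alone, 3 were called lower and 0 higher: the phosphoglucomutase relative Pgm5 (-1.29, limma adjusted p = 0.03874), the Z-disc protein Ldb3 (-0.56) and the actin-bundling protein Synpo2 (-0.29). Over all genes, 8.12% were called lower and 6.35% higher. Pgm5 stood above lacZ in both groups, by 0.41 in the cassettes and 1.71 in Klf4 alone, without passing the test. Against lacZ, 4 were called lower in the cassettes and 0 higher: the leiomodin Lmod1, which nucleates actin filaments (-1.21, limma adjusted p = 0.03997), Ldb3 (-1.05), the tropomyosin Tpm4 (-0.92) and Synpo2 (-0.75), where 1.59% of all genes were called lower and 0.456% higher. The medians of the list were -0.31 and -0.52 in these comparisons, and -0.16 in Klf4 alone against lacZ, where 0 were called, against 0.476% of all genes called lower and 0.271% higher.

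General actin and adhesion genes, 25 measured of 26, had medians of -0.39 in the cassettes against Klf4 alone and -0.58 against lacZ. Tln1 (-0.63), talin of focal adhesions, and Zyx (-0.59), zyxin, were called lower in the cassettes when set against Klf4 alone, 2 of 25 where 8.12% of all genes were called lower, a share near that of all genes. Against lacZ, where 1.59% of all genes were called lower, Filip1l (-1.18), Zyx (-1.04) and the light chain Myl12a (-0.67) were called lower. In neither comparison was a gene of this list called higher. In Klf4 alone against lacZ limma called 0 of 25 at the adjusted threshold (median -0.26), where 0.476% of all genes were called lower.

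The known regulators were read beside them. Srf read from 9.10 to 9.88 in the cassettes, 9.35 with Klf4S, 9.41 with Klf4L and 10.42 with lacZ, so that all 10 constructs lay below lacZ, but neither difference passed (-1.02, limma adjusted p = 0.07885, in the cassettes, and -1.03, limma adjusted p = 0.1669, in Klf4 alone). Myocd, myocardin, read from 5.89 to 6.49 in the cassettes, 6.49 with Klf4S, 6.43 with Klf4L and 7.53 with lacZ, low readings in every group. It was called lower in the cassettes than in lacZ (-1.30, SE 0.19, limma adjusted p = 0.01177) and not in Klf4 alone (-1.07, limma adjusted p = 0.07181), and cassettes and Klf4 alone differed by -0.23 (limma adjusted p = 0.3227). Mrtfa had -0.88 (limma adjusted p = 0.07213) in the cassettes and -0.41 in Klf4 alone against lacZ, and Mrtfb -0.11 and 0.03.

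Klf4 itself read from 9.64 to 10.20 in the cassettes, 9.93 with Klf4S, 9.71 with Klf4L and 9.47 with lacZ. Where in the transcript its probes lie is unknown from the sources at hand, so this signal does not measure the transgene. Jag1, a Notch ligand, was higher than in lacZ both in the cassettes (1.60, limma adjusted p = 0.000473) and in Klf4 alone (1.31, limma adjusted p = 0.005145). Between cassettes and Klf4 alone, 2 of 17 regulators were called lower and 1 higher, where 8.12% of all genes were called lower and 6.35% higher. The cGMP-dependent kinase Prkg1 (-1.30) and Gata6 (-1.24) were lower and the Notch target Hey2 higher (1.26). Their limma adjusted p ran from 0.003997 for Gata6 to 0.03134 for Hey2. Against lacZ, Prkg1 and Gata6 had 0.89 and 0.88 in Klf4 alone and -0.41 and -0.35 in the cassettes, without passing the test.

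Targets of YAP and TEAD, the factors linked to Ankrd1, had a median of -0.77 over 12 genes in the cassettes against lacZ and -0.36 in Klf4 alone against lacZ. By limma, 0 of 12 passed at the adjusted threshold in either, where 1.59% and 0.476% of all genes were called lower. In the cassettes against Klf4 alone the median was -0.43 and 2 were called lower, Tgfb2 (-1.06, limma adjusted p = 0.03547) and the angiomotin relative Amotl1 (-0.76, limma adjusted p = 0.04463), where 8.12% of all genes were called lower. Both genes stood above lacZ in Klf4 alone, by 0.69 for Tgfb2 and 0.57 for Amotl1, without passing the test.

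Pericyte markers, which share genes with smooth muscle, had means from 7.22 to 7.72 in the cassettes, 7.87 with Klf4S, 7.83 with Klf4L and 7.74 with lacZ. Of 8 measured, Rgs5 was called lower than in lacZ both in the cassettes (-1.13, limma adjusted p = 0.006878) and in Klf4 alone (-0.98, limma adjusted p = 0.03826). Of all genes, 1.59% and 0.476% were called lower in these comparisons. In lacZ, 5 of the 8 markers lay above the array median. Their part in the contractile differences was not tested.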

How the data were processed

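RNA of the 11 cell populations was measured on 11 Affymetrix mouse gene arrays, 1 per construct. The deposited log2 expression values were made by the authors with RMA, per the submitters' processing notes; the version and genome build are not given in the sources used here. RMA values can understate large differences, and the number of arrays limits the precision. The table held 28856 probe sets, of which 21789 had 1 gene symbol, 1621 several and 5446 none. One probe set per gene was kept, that with the highest mean, which left 19938 genes, with no filter on dim genes.

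Groups were fitted over all 11 arrays with limma 3.58.1 in R 4.3.3 (lmFit and eBayes, 8 residual degrees of freedom) and called at an adjusted p under 0.05 (Benjamini-Hochberg over all genes). The lone lacZ array was taken to have the spread of the remaining groups. Single constructs were described at 2-fold (1 on the log2 scale) without a test. The procedure was tested on simulated data. The members and lists were chosen with earlier results of these data known. Named genes were the 10 members, up to 4 called genes per list and comparison, SRF with its cofactors and Klf4, and the 8 genes most like the member mean, without predicted genes. Alternatives changed the normalization, the filter, the probe set rule, the arrays in the fit and the variance trend, and left out each construct in turn.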

Additional observations from a re-analysis of the deposited data

How the results depend on the processing

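All 10 members kept their negative sign in the 3 comparisons under every alternative run in which they were tested. Some alternatives could not move a member. Each had 1 probe set, so the probe set rule left its own values as they were. Between the cassettes and Klf4 alone, fitting without lacZ gave the same result as the main fit. Kcnmb1 and Ankrd1 had no test against lacZ. All of these are among the 504 values below, so the share that stayed the same is not a measure of robustness. Of 504 alternative values for single members, 488 kept their side of the threshold or their size, 12 passed where they had not and 4 no longer passed, these 4 being Des and Acta1 without either Klf4 construct. For the cassettes against Klf4 alone, leaving out 1 construct in turn gave 0 to 3 members called and 92 to 3968 genes called, with 0 members and 92 or 104 genes without Klf4L or Klf4S. For the cassettes against lacZ, members called were 2 with each array centred on its median and 2 with an intensity trend, and 1 to 3 when leaving out 1 construct (3 without EB-C5, 2 without OKN-HAMS). Genes called there were 186 among genes above the median level, 184 on the arrays of both compared groups only and 184 to 734 when leaving out 1 construct, against 409 (734 without STEMCCA, 272 without OSKM, 241 without OK+9MS and 184 without either Klf4 construct). For Klf4 alone against lacZ, 77 genes were called among those above the median level and 36 to 268 when leaving out 1 construct, against 149 (268 without MKOS, 93 without OK+9MS, 40 without Klf4S and 36 without Klf4L), with 0 members called each time. On the 3 arrays of that comparison alone limma called 0 genes, with 6485 at an unadjusted p under 0.05. The causes of these shifts were not tested. No paired analysis was possible because the labels give no replicate numbers that link constructs between groups.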

Other observations

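Among markers of other cell types, a few genes not named above were called. Of all genes, 8.12% were called lower and 6.35% higher in the cassettes against Klf4 alone. Against lacZ these shares were 1.59% and 0.456% in the cassettes and 0.476% and 0.271% in Klf4 alone. Tek, the angiopoietin receptor of endothelial cells, read from 9.05 to 10.03 in the cassettes, 7.95 with Klf4S, 7.88 with Klf4L and 6.24 with lacZ, and was higher in the cassettes than in Klf4 alone (1.65, limma adjusted p = 0.003669) and than in lacZ (3.33, limma adjusted p = 0.00093). Esam, an endothelial adhesion molecule, read from 6.29 to 6.69 in the cassettes, 8.13 with Klf4S, 8.65 with Klf4L and 6.93 with lacZ, and was lower in the cassettes when compared with Klf4 alone (-1.85, limma adjusted p = 0.000197) and higher in Klf4 alone than in lacZ (1.46, limma adjusted p = 0.0166). Tnnc1, the troponin C of slow and cardiac muscle, read from 6.79 to 7.06 in the cassettes, 7.67 with Klf4S, 7.57 with Klf4L and 7.48 with lacZ, and was lower in the cassettes when set against Klf4 alone (-0.66, limma adjusted p = 0.001876) and against lacZ (-0.52, limma adjusted p = 0.03834). Tnnc1 was the only gene called of 18 skeletal muscle markers in either comparison. The epithelial adhesion molecule Epcam was higher in the cassettes than in Klf4 alone (3.12, SE 0.89, limma adjusted p = 0.04602). It went with its list there, as 9 of 10 epithelial markers were higher in sign (median 1.57). Epcam alone was called of the 10, a share near the 6.35% of all genes called higher. Kdr, a receptor of vascular growth factor, was lower in the cassettes than in lacZ (-0.52, limma adjusted p = 0.02118). Tek, Esam and Kdr belong to a list of 8 endothelial markers that did not move together. In the cassettes, 3 of the 8 were higher in sign against Klf4 alone and 4 against lacZ, with 1 called higher and 1 lower each time. In Klf4 alone against lacZ, 5 of the 8 were higher in sign, with 1 called higher and 0 lower.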
